A study of Homo sapiens with 2 samples.

Results

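The genes that encode the eukaryotic translation initiation factors and the eIF4E-binding proteins (4E-BPs) were read out in HCT116 cells treated with LXR623. A probe set belonged to this family when the platform annotation gave it a symbol that starts with EIF and a digit. The kinases that phosphorylate eIF2 (EIF2AK1 and its relatives) and the antisense or pseudogene names EIF1B-AS1 and EIF3IP1 were left out. Of 54 symbols with that start, 6 were left out on these grounds, and 48 members remained among 22458 probe sets with a gene symbol and 23786 probe sets in all. The rule reads symbols and not values. EIF3J-DT is a member by its name alone, since it is a non-coding transcript that starts beside EIF3J and encodes no initiation factor. EIF3C, EIF3CL, EIF4A1 and EIF4G3 were not analysed here.

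HCT116 is an established line of human colon carcinoma cells, and LXR623 is an agonist of the liver X receptors, nuclear receptors that control the export and synthesis of cholesterol. The treated cells received 20 µM LXR623 for 24 h, and the control cells received 0.1% DMSO for the same time, with 1.5% serum in the medium. RNA of each condition was measured on 1 expression array, so neither a spread between replicates nor a test could be given. All values are log2 intensities after RMA, a procedure that corrects background, normalizes arrays to each other and summarises the probes of a probe set. Every difference below is the LXR623 value minus the DMSO value on that scale, and describes these 2 arrays alone. Bulk RNA gives relative amounts per culture, so fewer cells of a type and less RNA per cell cannot be told apart.

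The arrays had medians of 4.43 with LXR623 and 4.40 with DMSO, and correlated at 0.99 across all probe sets, which are not independent replicates. A probe set counted as measured when both arrays together averaged at least 4.42, the median of the table, which left 11899. ABCA1, the cholesterol exporter that LXR induces, read 5.14 with LXR623 and 3.58 with DMSO. Its DMSO value and its mean lay under 4.42, so ABCA1 did not count as measured. Of 10 epithelial markers of colon carcinoma, 9 reached the floor of 4.42 on both arrays and VIL1 did not (3.12 on both). Of 8 markers of other cell types, CD68 and COL1A1 reached it and the other 6 did not. Exactly the same value stood in both arrays for 5.70% of all probe sets, among them the member EIF4EBP3.

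Translation of most mRNAs begins when eIF4E binds the cap, the scaffold eIF4G joins it to the helicase eIF4A, and the small ribosomal subunit arrives with eIF3 and with the initiator tRNA carried by eIF2 and GTP. The 4E-BPs occupy the site on eIF4E that the scaffold needs, until the kinase mTORC1 phosphorylates them and they let go. When eIF2 is phosphorylated in the integrated stress response, it blocks eIF2B, the factor that reloads it with GTP, and general initiation slows while a few mRNAs such as that of ATF4 are translated better. These steps are set by phosphorylation and binding of proteins, which arrays do not measure.

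The mRNAs of most initiation factors differed little between the arrays. Among the 45 measured members, 1 was at least 1.5-fold higher with LXR623 (EIF3J-DT), where 5.84% of all measured probe sets were, and 3 were at least 1.5-fold lower (EIF5A2, EIF1AX and EIF4E), where 5.41% were. No measured protein-coding member reached 1.5-fold on the higher side, with EIF4B, EIF4A2 and EIF4EBP1 closest to it. At a looser threshold, a difference of 0.32, 5 members were higher and 9 were lower, against 17.4% and 18.9% of measured probe sets. At 2-fold, 0 were higher and 1 was lower, against 1.15% and 0.63%. With no filter, 1 of the 48 members was at least 1.5-fold higher and 5 were at least 1.5-fold lower, against 5.22% and 4.76% of all probe sets. The median difference was -0.11 over the measured members and -0.02 over all measured probe sets. Below 0 lay 28 of the 45 members, or 62.2%, against 52% of all measured probe sets, and above 0 lay 17, or 37.8%, against 46.6%.

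Probe sets of low intensity scatter more than bright ones, so each member was also set beside probe sets of like brightness. Measured probe sets were divided into 20 bins by the mean of both arrays, and the range that holds the central 95% of differences was taken in each bin. Within that range lay 43 of the 45 members, and the 2 outside it were EIF5A2 and EIF1AX, both on the lower side. By construction 5% of all measured probe sets lie outside. The plot of difference against brightness shows both genes toward the lower edge of the cloud and EIF4B toward its upper edge.

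**Figure D1:**
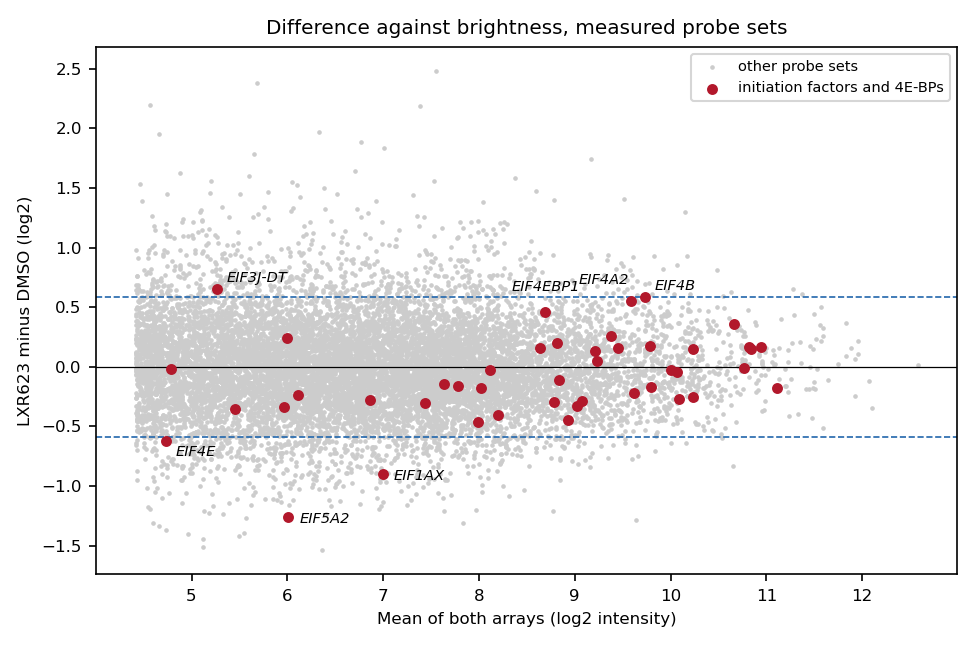
Difference between LXR623 and DMSO (log2, vertical axis) against the mean of both arrays (log2 intensity, horizontal axis) for 11899 measured probe sets, with the 45 measured members in red, 1 array per condition. Dashed lines mark 1.5-fold, and EIF5A2 at -1.26 and EIF1AX at -0.90 are the lowest members.

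The lowest difference of the family belonged to EIF5A2. It read 5.38 in LXR623-treated cells, against 6.64 in DMSO-treated cells, a difference of -1.26 or 2.39-fold lower. It ranked 13 from the lowest of the 11899 measured probe sets, and the central range of its bin ran from -0.87 to 0.76. The gene encodes the second human form of eIF5A, a protein that carries the modified amino acid hypusine and helps the ribosome past stretches that form peptide bonds slowly. Its widely expressed relative EIF5A read 5.28 with LXR623 and 5.63 with DMSO, a difference of -0.35. Both values lay under those of EIF5A2, and how well this probe set reports EIF5A was not tested. The copy EIF5AL1 stayed under the floor on both arrays, at 2.44 with LXR623 and 3.03 with DMSO. These genes are close in sequence, and whether the probes tell them apart was not tested. EIF6, which keeps the large ribosomal subunit from joining too early, read 8.78 with LXR623 and 8.89 with DMSO, a difference of -0.11. All 3 measured genes of this group therefore lay below 0, with a median of -0.35.

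Next lowest was EIF1AX, which helps the small subunit scan for the start codon. It read 6.54 in LXR623-treated cells and 7.44 in DMSO-treated cells, 1.87-fold lower. The difference of -0.90 fell outside the range of its bin, -0.79 to 0.83. EIF1AX has a near-identical copy, EIF1AY, and whether the probes tell them apart was not tested. The other genes grouped under start-codon recognition and subunit joining were divided. EIF1AD, named for its eIF1A domain, was placed in this group, and its role in these steps was not tested. It read 7.76 with LXR623 and 8.22 with DMSO, a difference of -0.46. EIF5B, the GTPase that joins the subunits, had 8.86 with LXR623 and 9.19 with DMSO, a difference of -0.33. The value of EIF1B, a close relative of EIF1, was 6.73 with LXR623 and 7.002 with DMSO, a difference of -0.28. Above 0 were the remaining 2. EIF1, which guards against wrong start codons, read 10.31 with LXR623 and 10.16 with DMSO, a difference of 0.15. EIF5, which makes eIF2 hydrolyse its GTP, read 9.26 with LXR623 and 9.21 with DMSO, a difference of 0.05. The median of these 6 genes was -0.30. EIF1AY is on the array, did not reach the floor and is not described further.

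EIF4E, the cap-binding protein, was the third member past 1.5-fold on the lower side. Its probe set read 4.42 with LXR623 and 5.05 with DMSO, 1.54-fold lower. The difference of -0.62 lay within the range of its bin, -0.81 to 0.89, and the LXR623 value stood at the floor of 4.42. The related cap-binding proteins differed less. EIF4E2, which can hold capped mRNAs without starting translation, read 8.92 with LXR623 and 8.72 with DMSO, a difference of 0.20. For EIF4E3 the values were 6.12 with LXR623 and 5.88 with DMSO, a difference of 0.24, and for EIF4E1B they were 4.78 with LXR623 and 4.80 with DMSO, a difference of -0.02.

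The 4E-binding inhibitors lay on both sides of 0. EIF4EBP1 encodes the best-known 4E-BP and is a known target gene of ATF4. It read 8.92 in LXR623-treated cells and 8.46 in DMSO-treated cells, a difference of 0.46 or 1.38-fold. EIF4EBP2 read 9.53 with LXR623 and 9.37 with DMSO, a difference of 0.16. Both were higher with LXR623 by less than 1.5-fold, and both lay within the range of their bins. EIF4EBP3 stayed under the floor, at 3.74 on both arrays. EIF4ENIF1 encodes 4E-T, which binds eIF4E and carries it into the nucleus and to sites of mRNA decay, and it read 7.56 with LXR623 and 7.70 with DMSO, a difference of -0.14. Against EIF4E itself the directions were opposite, since the EIF4EBP1 value was higher and the EIF4E value lower with LXR623. Both differences lay within the range of their bins. The LXR623 value of EIF4E stood at the floor, and how well its probe set reports the gene was not tested.

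Scaffold mRNAs were both slightly lower. EIF4G1, the main scaffold, read 8.64 with LXR623 and 8.93 with DMSO, a difference of -0.29. EIF4G2 encodes a scaffold that lacks the eIF4E-binding part and serves initiation without the cap-binding protein, and read 11.02 with LXR623 and 11.20 with DMSO, a difference of -0.18.

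The helicase group divided into genes above and below 0. EIF4B, the cofactor that stimulates the helicase, read 10.02 in LXR623-treated cells and 9.44 in DMSO-treated cells. Its difference of 0.583 fell just short of the 0.585 that marks 1.5-fold, and lay within the range of its bin, -0.54 to 0.63. EIF4A2, a form of the helicase itself, read 9.87 with LXR623 and 9.32 with DMSO, a difference of 0.55 or 1.47-fold. The cofactor EIF4H, which acts much as EIF4B does, read 10.11 with LXR623 and 10.36 with DMSO, a difference of -0.25. EIF4A3, which works in the complex that marks exon junctions more than in initiation, read 8.94 with LXR623 and 9.22 with DMSO, a difference of -0.28. EIF4B and EIF4A2 were the protein-coding members with the highest differences, at ranks 705 and 812 from the highest of all measured probe sets.

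**Figure D2:**
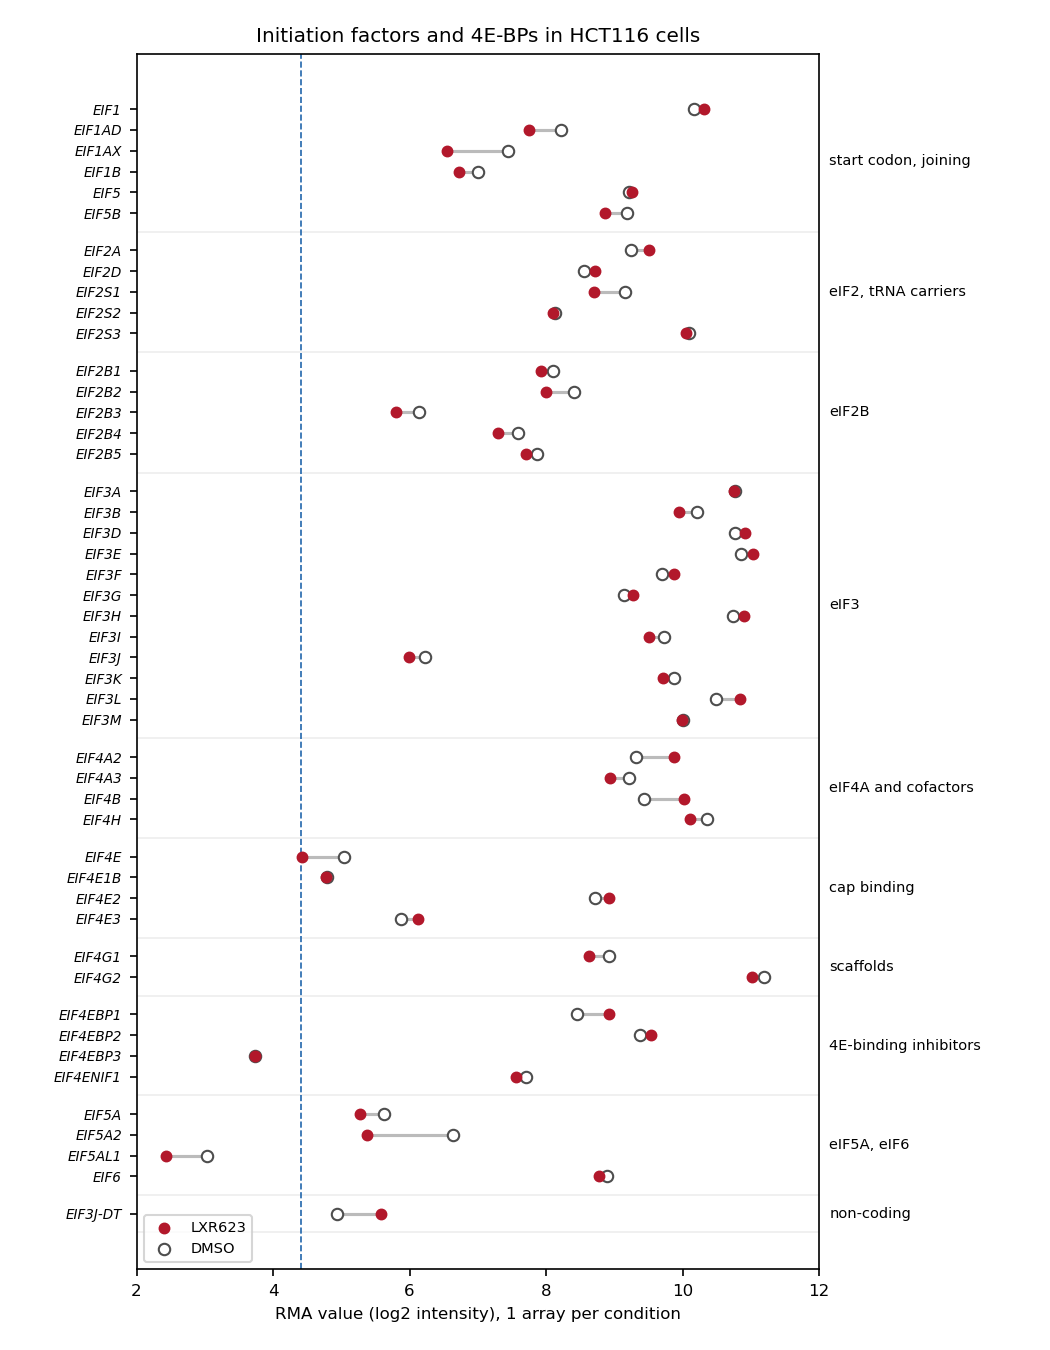
RMA value (log2 intensity, horizontal axis) of each member on the LXR623 array (red, filled) and on the DMSO array (open), grouped by role, 1 array per condition, with EIF1AY not drawn. The dashed line is the floor of 4.42, and most pairs of points nearly touch while EIF5A2 (5.38 with LXR623, 6.64 with DMSO) and EIF1AX (6.54 with LXR623, 7.44 with DMSO) are the widest apart among measured members.

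All 5 subunits of eIF2B were lower with LXR623, where 52% of all measured probe sets were below 0. This complex reloads eIF2 with GTP and is the target of phosphorylated eIF2. EIF2B2 had the lowest difference of the 5, with 8.004 in LXR623-treated cells and 8.40 in DMSO-treated cells, a difference of -0.40. The gene of the catalytic subunit, EIF2B5, had the highest, with 7.71 with LXR623 and 7.86 with DMSO, a difference of -0.16. Between them lay EIF2B3 at -0.34, EIF2B4 at -0.30 and EIF2B1 at -0.18, and the median was -0.30. None reached 1.5-fold and each lay within the range of its bin.

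The 3 subunits of eIF2 itself were not alike. EIF2S1 encodes the alpha subunit, which the stress kinases phosphorylate, and read 8.71 with LXR623 and 9.15 with DMSO, a difference of -0.44. EIF2S2, the beta subunit, read 8.11 with LXR623 and 8.13 with DMSO, a difference of -0.03, which became 0.0086 with the lowess trend removed. EIF2S3, the gamma subunit that binds GTP and the tRNA, read 10.05 with LXR623 and 10.09 with DMSO, a difference of -0.04. The alpha subunit was thus the lower one and the other 2 nearly level. EIF2A and EIF2D encode proteins that can bring tRNA to the ribosome without eIF2, and both were above 0. EIF2A read 9.51 with LXR623 and 9.25 with DMSO, a difference of 0.26. EIF2D read 8.71 with LXR623 and 8.56 with DMSO, a difference of 0.16.

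The 12 measured subunits of eIF3, the large complex that holds the small ribosomal subunit open for mRNA, had a median of 0.06, against -0.16 for the 33 measured members outside eIF3. Their differences ran only from -0.27 to 0.36, with 6 above and 6 below 0. EIF3L had the highest, with 10.84 in LXR623-treated cells and 10.48 in DMSO-treated cells, 1.28-fold higher. EIF3B, the scaffold of the complex's outer module, had the lowest, with 9.95 with LXR623 and 10.22 with DMSO. EIF3E, EIF3F and EIF3H each lay at 0.17, EIF3D at 0.15 and EIF3G at 0.13, so that with EIF3L 6 subunits were above 0. EIF3A and EIF3M were at -0.01 and -0.03. EIF3K, EIF3I and EIF3J were lower, at -0.17, -0.22 and -0.24. The subunits were also split by structure, a choice made after the values were seen. The octamer that forms the core of the complex had 7 measured subunits (EIF3A, EIF3E, EIF3F, EIF3H, EIF3K, EIF3L and EIF3M). They had a median of 0.17 and a mean of 0.10, with 4 above and 3 below 0. The 5 others had a median of -0.22 and a mean of -0.09, with 2 above and 3 below 0. The plot of differences by role shows eIF3 spread about 0 and the whole of eIF2B under it.

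**Figure D3:**
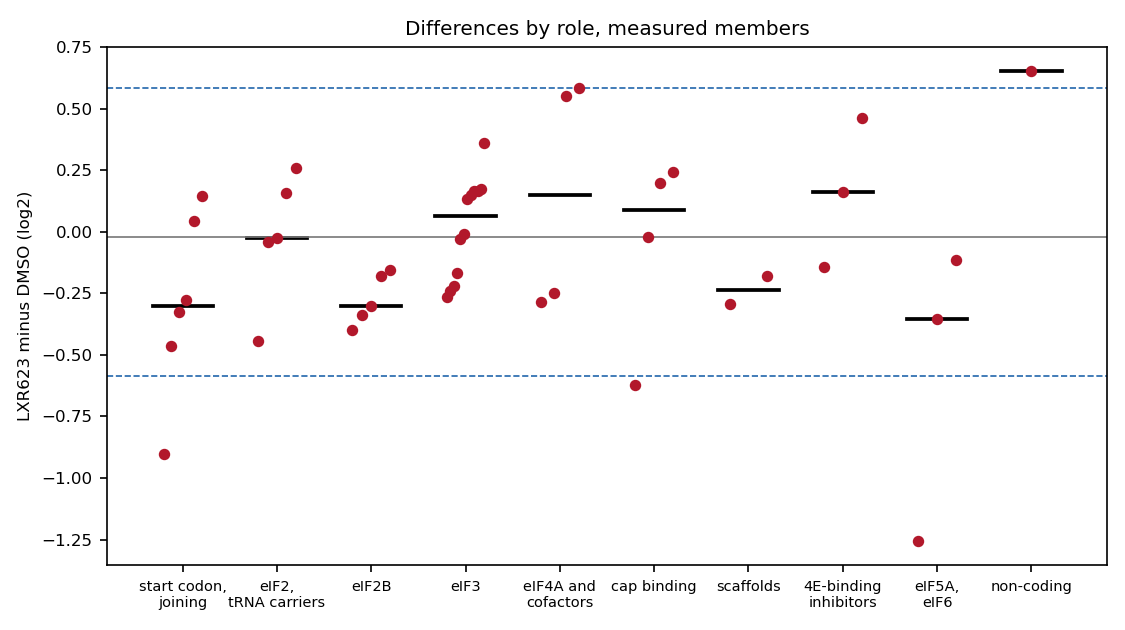
Difference between LXR623 and DMSO (log2, vertical axis) of the 45 measured members by role, each point a gene and each black bar the median of its group, 1 array per condition. The grey line is the median of all measured probe sets, -0.02, and the dashed lines mark 1.5-fold, so that all 5 eIF2B points lie under 0 while eIF3 ranges from -0.27 to 0.36.

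EIF3J-DT, the non-coding member, read 5.59 with LXR623 and 4.93 with DMSO, a difference of 0.66 or 1.57-fold higher, within the range of its bin (-0.74 to 0.90). Its neighbour EIF3J encodes a loosely bound subunit of the complex, and read 5.99 with LXR623 and 6.23 with DMSO, a difference of -0.24. The pair is transcribed in opposite directions, and the start of EIF3J lies 224 bases from 1 of the starts that RefSeq lists for EIF3J-DT. The 250 bases before the start of EIF3J are shown because they hold the space between these starts. They lie at chr15:44536897-44537146 of GRCh38.p14 on the plus strand, and the 27 capitals lie past that start of EIF3J-DT on the other strand.
EIF3J: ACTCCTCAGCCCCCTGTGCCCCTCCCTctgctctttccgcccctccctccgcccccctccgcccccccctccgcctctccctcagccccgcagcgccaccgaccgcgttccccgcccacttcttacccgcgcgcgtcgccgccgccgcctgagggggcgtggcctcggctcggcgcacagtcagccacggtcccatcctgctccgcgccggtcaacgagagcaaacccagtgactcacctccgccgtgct

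Promoter sequences were available from RefSeq (GRCh38.p14) for 41 of the 48 members, in 56 windows, and were searched in the 250 bases before each start on both strands. The letters CACGTG, the E-box that MYC and related factors can bind, occurred in at least 1 window of 11 of the 41 genes, or 26.8%, against 7.73% of the 27305 genes with a window. By window the counts were 11 of 56, against 6.34% of all 35116. The 27305 genes include genes that were not measured here. Among all measured genes with a window, 1048 held the letters and 7968 did not, against 10 and 28 of the members. These 11 were EIF1B, EIF2B3, EIF3F, EIF3K, EIF4A3, EIF4B, EIF4E, EIF4EBP3, EIF4G1, EIF4H and EIF5A2, and EIF4E, EIF4G1 and EIF5A2 held 2 copies each. The median difference of the 10 measured ones was -0.28, with 2 above 0 and 8 below. The 28 measured members without these letters had a median of -0.13, with 10 above 0 and 18 below. Over all measured genes with a window, the median was -0.01 with the letters, where 46.5% lay above 0 and 51.6% below, and -0.03 without them, where 45.8% lay above 0 and 53% below. A match is a stretch of letters and not a bound site. Shown are EIF5A2 and EIF4E, past 1.5-fold on the lower side, and EIF4B, the highest protein-coding member, with the E-box in capitals. The window of EIF5A2 is chr3:170908638-170908887 on the minus strand, that of EIF4E is chr4:98929134-98929383 on the minus strand, and that of EIF4B is chr12:53006206-53006455 on the plus strand.
EIF5A2: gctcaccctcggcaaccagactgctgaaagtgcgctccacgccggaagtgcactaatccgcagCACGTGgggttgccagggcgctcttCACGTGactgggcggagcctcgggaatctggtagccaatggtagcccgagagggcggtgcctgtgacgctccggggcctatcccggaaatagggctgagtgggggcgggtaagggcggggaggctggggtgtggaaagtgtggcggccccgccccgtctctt
EIF4E: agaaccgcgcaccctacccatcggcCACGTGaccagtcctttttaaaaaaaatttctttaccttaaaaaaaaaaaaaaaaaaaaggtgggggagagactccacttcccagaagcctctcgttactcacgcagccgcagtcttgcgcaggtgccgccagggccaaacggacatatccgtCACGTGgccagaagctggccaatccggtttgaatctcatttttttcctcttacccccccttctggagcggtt
EIF4B: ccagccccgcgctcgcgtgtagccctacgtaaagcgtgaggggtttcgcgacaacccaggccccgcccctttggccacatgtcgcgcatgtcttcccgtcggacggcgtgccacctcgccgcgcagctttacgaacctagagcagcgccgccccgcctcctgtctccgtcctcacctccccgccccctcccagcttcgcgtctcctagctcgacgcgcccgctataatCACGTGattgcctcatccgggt

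In EIF5A2 the E-boxes begin 187 and 162 bases before the start, in EIF4E 225 and 72 bases before it, and in EIF4B 22 bases before it. The same motif stood in front of the lowest member and of the highest protein-coding one. Of the 10 measured members with it, 2 lay above 0 and 8 below, and whether the motif bears on direction was not tested. The letters TGACGTCA, the full site for CREB and ATF proteins, were found in 1.65% of all windows and in 0 of the 56 windows of the 41 members. The core TGATGNAA, read by ATF4 with its partners, was found in 3.14% of windows. Among the 56 windows of the 41 members it was found in 1, that of EIF4E3, 13 bases before its start. EIF4EBP1 has no window and was not searched. The LXR element, AGGTCA repeated after any 4 bases, is bound by LXR with its partner RXR. It was found in 0.0142% of windows and in 0 of the 56 windows of the 41 members. An absent match says only that these letters are not in this window.

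Many mRNAs of the translation apparatus start with a C followed by a run of pyrimidines, the feature by which mTORC1 and LARP1 control their translation. A start was counted as pyrimidine when the first base was C and the run of C and T was at least 5 bases long. Such a start was annotated for 9 of the 41 members, or 22%, against 5.14% of the 27305 genes with a window and 4.07% of all windows. The 27305 genes include genes that were not measured here. Among all measured genes with a window, 654 had such a start and 8362 another, against 9 and 29 of the members. The first 20 transcribed bases of the 9 genes are shown, with the pyrimidine run in capitals and positions in GRCh38.p14. EIF2A lies at chr3:150546787-150546806, EIF2S3 at chrX:24054956-24054975, EIF3F at chr11:7987337-7987356, EIF3K at chr19:38619188-38619207, EIF3M at chr11:32583831-32583850, EIF4A2 at chr3:186783577-186783596 and EIF4B at chr12:53006456-53006475, all on the plus strand. EIF2D at chr1:206612446-206612465 and EIF3D at chr22:36529147-36529166 lie on the minus strand.
EIF2A: CTCTTTCCgggacaacatgg
EIF2D: CCTTTTCgcggccgggcccc
EIF2S3: CTCTTTTggcaacatggcgg
EIF3D: CTCTTTTCCTggtttctcaa
EIF3F: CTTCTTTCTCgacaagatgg
EIF3K: CTCTTCCTgttcccgtcctt
EIF3M: CTTTTCCggtcggcgtggtc
EIF4A2: CTTTTCagtcgggcgctgag
EIF4B: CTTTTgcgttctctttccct

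The 9 genes with a pyrimidine start had a median difference of 0.16, and 6 of them were above 0. They ran from -0.17 (EIF3K) to 0.58 (EIF4B), with EIF4A2 and EIF2A next to EIF4B. The 29 measured members with another start had a median of -0.25, and 6 of them, EIF3J-DT included, were above 0 and 23 below. EIF2S2, EIF3A, EIF3E, EIF3G, EIF3H, EIF3L and EIF4EBP1 had no window and entered neither class, and of these 7 members 5 lay above 0 and 2 below, with a median of 0.17. Over all measured genes with a window, 654 had a pyrimidine start and a median of 0.03, with 52.4% above 0, and 8362 had another start and a median of -0.04, with 45.3% above 0. In both classes the median of the members lay farther from 0 than that of all genes. Medians of 9 and 29 genes vary more than those of 654 and 8362, so this comparison cannot show a larger difference in the members. The classes were formed after the values were seen and carry no test, and array values are levels of mRNA, not of its translation.

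**Figure D4:**
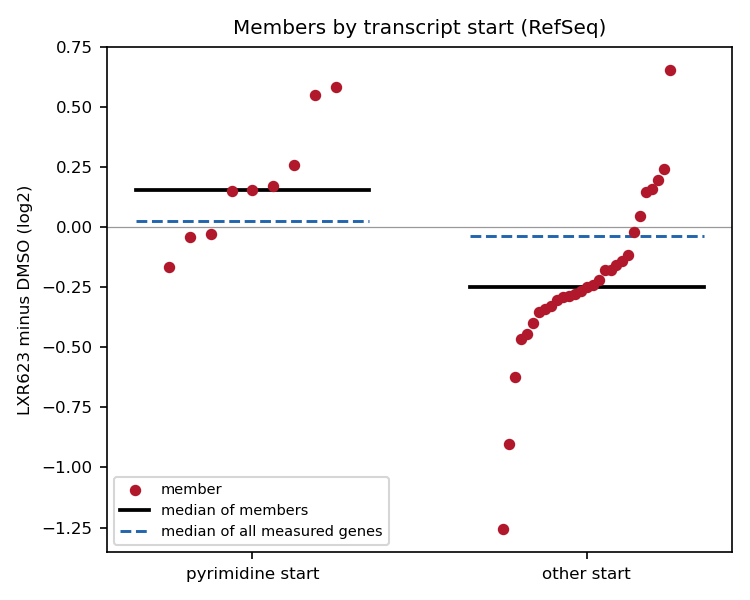
Difference between LXR623 and DMSO (log2, vertical axis) of measured members with a pyrimidine start (9 genes) and with another start (29 genes), each point a gene, 1 array per condition. Black bars are the medians of the members, 0.16 and -0.25, and dashed bars the medians of all measured genes of each class, 0.03 and -0.04.

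Beside the initiation factors, a list of 40 genes of the later steps and of the regulators of translation was read out, of which 37 are on the array and 33 were measured. At least 1.5-fold higher were 2 of the 33, against 5.84% of all measured probe sets, and at least 1.5-fold lower was 1, against 5.41%. Their median was -0.11, the same as that of the initiation factors to 2 decimals. The mean was -0.02 for this list and -0.08 for the measured initiation factors. The plot of the other genes of translation gives each difference.

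PDCD4 stood apart from the rest of the list. It encodes a repressor that binds the helicase eIF4A and keeps it from unwinding mRNA. Its value was 8.31 in LXR623-treated cells and 6.75 in DMSO-treated cells, a difference of 1.56 or 2.95-fold higher. It ranked 16 from the highest of all measured probe sets, and was the 1 gene of the 33 outside the range of its bin. MKNK2, a kinase that phosphorylates eIF4E, read 7.92 with LXR623 and 7.31 with DMSO, 1.53-fold higher. With each array centred on its median the difference of MKNK2 was 0.575, short of the 0.585 that marks 1.5-fold. Its relative MKNK1 read 6.84 with LXR623 and 7.17 with DMSO, a difference of -0.33. The gene past 1.5-fold on the lower side was EEF1B2, a subunit of the exchange factor that reloads the elongation factor eEF1A, at 6.89 with LXR623 and 7.53 with DMSO, a difference of -0.65.

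Among the other elongation factors, EEF2, which moves the ribosome along the mRNA, read 12.01 with LXR623 and 11.65 with DMSO, a difference of 0.37. The 3 measured genes of termination and recycling were all below 0, as were 52% of all measured probe sets, with a median of -0.47. None of the 3 reached 1.5-fold, and each lay within the range of its bin. ETF1, which recognises stop codons, read 9.14 with LXR623 and 9.63 with DMSO. GSPT1, its GTPase partner, read 8.27 with LXR623 and 8.74 with DMSO. ABCE1 splits the ribosome afterwards, and read 9.08 with LXR623 and 9.50 with DMSO. MTOR, the kinase that phosphorylates the 4E-BPs, its adaptor RPTOR and its other substrate RPS6KB1 lay at -0.17, -0.24 and -0.24, and LARP1 at -0.04. RPS6KB2 lay at -0.04, MLST8 at -0.13 and RPS6 at 0.07. None of these genes reached 1.5-fold, and each lay within the range of its bin. Of all 10 measured upstream kinases and repressors, PDCD4 and MKNK2 included, 3 lay above 0 and 7 below. Of the hypusine enzymes that modify eIF5A, DHPS had a difference of 0.29 and DOHH one of -0.49. Of the 4 measured genes of poly(A) binding, PAIP2B and PAIP2, which hold back the poly(A)-binding protein, lay at 0.53 and 0.21. PABPC4 lay at 0.05 and PAIP1 at -0.20. None of the 4 reached 1.5-fold, and each lay within the range of its bin.

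**Figure D5:**
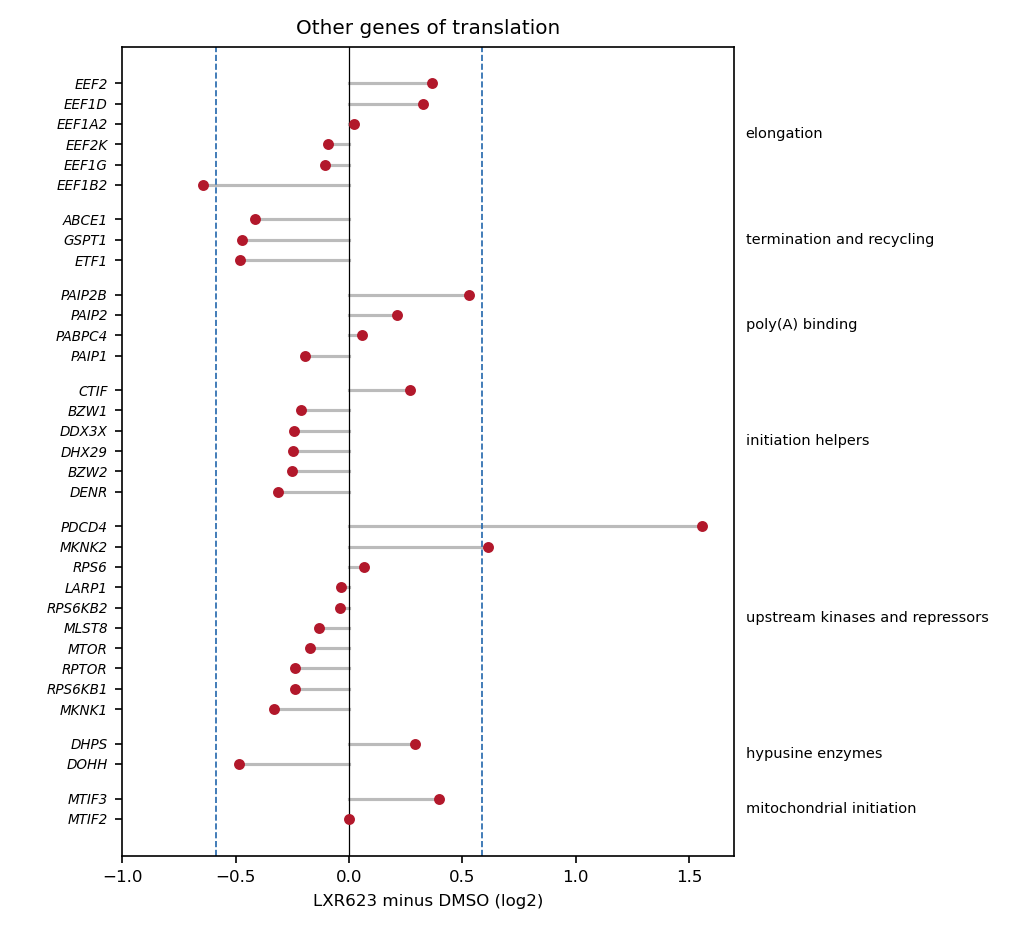
Difference between LXR623 and DMSO (log2, horizontal axis) of 33 measured genes of translation outside the initiation factors, by role, 1 array per condition. Dashed lines mark 1.5-fold, which PDCD4 (1.56) and MKNK2 (0.61) passed on the higher side and EEF1B2 (-0.65) on the lower.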

How the data were processed

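The authors deposited 1 log2 RMA intensity per probe set and array for HCT116 cells treated with LXR623 (1 array) or DMSO (1 array). The submitters' processing notes name RMA, affy 1.36.1 and R 2.15.1, and the array design and genome build are not given in the sources used here. The labels give RPMI as the medium of the cells, while the study's methods give DMEM for HCT116 cells, and which was used for the arrays could not be settled. The deposited log2 values were used as they stand. Gene symbols came from the platform annotation.

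For each probe set the DMSO value was subtracted from the LXR623 value. Probe sets whose mean of both arrays was at or above the median of the table, 4.42, were called measured, and 1.5-fold served as the threshold. A single array for each condition allows no test, and this number limits the precision. Measured probe sets were divided into 20 bins of mean expression for the central 95% of differences. All members could be named, those past 1.5-fold, the 4E-binding inhibitors and the highest and lowest of each role with both values, and from the list of other translation genes those past 1.5-fold and the highest and lowest. Other genes of that list and the promoter classes were read out after their values were seen. The members and lists were chosen with earlier results of these data known.

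Promoter windows came from RefSeq (GRCh38.p14), matched by symbol. Alternatives were no filter, a filter on the higher value, a filter at the 25th percentile, centring, quantile normalization, removal of a lowess trend (fraction 0.3), a looser threshold (a difference of 0.32) and one of 2-fold, means in place of medians, and leaving out families with near-identical copies. The steps were run on simulated arrays with known changes and a noise set by hand. That checks the calculation and not how often the 1.5-fold call errs on these arrays. Tables were handled with pandas 2.3.3 and numpy 2.4.6 in Python 3.11.15, the trend was fitted with statsmodels 0.14.6, and figures were drawn with matplotlib 3.10.9.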

Additional observations from a re-analysis of the deposited data

How the results depend on the processing

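Counts of initiation factors past the threshold were small and moved with it. At 2-fold, 0 members were higher and 1 was lower, against 1.15% and 0.63% of all measured probe sets. At the looser threshold of 0.32 the counts were 5 and 9 of 45, against 17.4% and 18.9%. With the lowess trend removed 2 were higher, against 6.49% of all measured probe sets, since EIF4B then passed 1.5-fold at a difference of 0.59. Without the non-coding EIF3J-DT, an alternative added after seeing the data, 0 were higher. With no filter on low values 5 were lower, against 4.76% of all probe sets, because members under the floor entered. Among the other genes of translation, 1 was higher with arrays centred on their medians, PDCD4 without MKNK2, against 5.12% of all measured probe sets. With no filter 3 were higher and 2 lower, against 5.22% and 4.76%, and with the filter at the 25th percentile 2 were lower, against 5.27%. At 2-fold 1 of them was higher and 0 were lower, against 1.15% and 0.63% of all measured probe sets. At 0.32 the counts were 6 and 6 of 33, against 17.4% and 18.9%. The median of the cap-binding proteins was 0.09 and their mean -0.051. The median of eIF5A and eIF6 was -0.47 with no filter and with the filter at the 25th percentile, where EIF5AL1 entered, and the mean of the measured ones was -0.57. Of 79 values of 11 list medians under the alternatives, 75 lay within 0.1 of the main value. The member median ran from -0.15 with centred arrays to -0.04 without families that have near-identical copies. No paired analysis was possible because each condition has a single array. The error of every difference is unknown for the same reason, values near the floor of 4.42 are the least certain, and array levels do not show protein amount or phosphorylation.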
